A study of Mus musculus with 14 samples.

Results

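The 10 genes described here encode the core kinases of the Hippo pathway, their scaffold and adaptor proteins, and proteins that act upstream of the kinases: Lats1, Lats2, Stk3, Stk4, Sav1, Mob1a, Mob1b, Nf2, Amot and Amotl1. They were chosen by symbol, with earlier results of these data known, and make up 10 of the 21878 genes in the deposited tables. All 10 were among the 14100 genes that passed the filter on low counts.

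RNA was sequenced from mouse hepatocytes of the C57BL/6 strain in 14 libraries, 2 for each of 7 groups. Fresh hepatocytes were sequenced after isolation, from livers labelled with no genotype (FH) and from cells labelled Yap-/- (FH Yap-/-). Cultured cells carry the names BM and LBDXL, which the labels do not spell out. In BM the time points were 1 day in BM 1D, 3 days in BM 3D, and 3 weeks in BM 3W and in its counterpart labelled Yap-/-, BM 3W Yap-/-. In LBDXL it was 3 weeks (LBDXL 3W). The labels give neither the age or number of the animals, nor the allele or Cre line behind the Yap-/- cells, nor the source of each of the 2 libraries in a group. Since these may share an animal or a culture, p-values reflect the spread between samples only, and it may be technical.

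The Hippo pathway is a kinase cascade that restrains the transcriptional co-activators YAP and TAZ. The kinases MST1 and MST2, encoded by Stk4 and Stk3, work with the scaffold SAV1 to phosphorylate LATS1 and LATS2 and their MOB1 co-activators, and the LATS kinases then phosphorylate YAP and TAZ, which are held in the cytoplasm or degraded. Merlin, the product of Nf2, brings LATS kinases to the membrane, and angiomotins bind both YAP and filamentous actin. In the liver, loss of these restraints enlarges the organ and turns hepatocytes towards a biliary or progenitor state. YAP acts on DNA through the TEAD factors, and LATS2, NF2 and AMOTL2 are known as YAP targets in several cell types, which forms a negative feedback. RNA levels say nothing of phosphorylation, by which most of this pathway is controlled.

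The 5 genes that were lower in BM 3W Yap-/- than in BM 3W are shown here by the DNA just before their RefSeq start sites (GRCm38.p6), because YAP has no DNA-binding domain and reaches promoters through TEAD factors. Capitals mark GGAATG or its reverse complement CATTCC, the core of the TEAD element, searched on both strands. Each stretch is written 5′ to 3′ on the strand of the gene. Lats2 and Nf2 have 2 start sites each, and the one not shown held no match. The starts shown for Lats2, Sav1 and Amotl1 lie inside the gene, which on the minus strand begins at 57746212, 69988141 and 14662974. That of Mob1a also lies inside its gene, by a few bases, which on the plus strand begins at 83326034. A match or its lack is thus that of the start shown, not of every start of the gene.

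Lats2 (chr14:57746114-57746373, minus strand, 250 bases before the start to 10 after): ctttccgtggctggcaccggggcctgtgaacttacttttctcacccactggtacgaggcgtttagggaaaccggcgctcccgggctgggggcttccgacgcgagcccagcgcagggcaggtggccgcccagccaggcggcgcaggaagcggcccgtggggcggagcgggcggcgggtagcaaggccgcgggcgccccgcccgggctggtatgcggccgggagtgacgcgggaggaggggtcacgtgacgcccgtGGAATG

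Sav1 (chr12:69987003-69987252, minus strand, 250 bases before the start): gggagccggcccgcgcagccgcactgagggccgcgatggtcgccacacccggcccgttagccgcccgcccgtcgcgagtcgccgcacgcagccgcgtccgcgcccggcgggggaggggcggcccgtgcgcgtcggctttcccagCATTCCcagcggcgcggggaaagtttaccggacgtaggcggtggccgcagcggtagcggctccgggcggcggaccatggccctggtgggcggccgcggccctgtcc

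Mob1a (chr6:83325789-83326038, plus strand, 250 bases before the start): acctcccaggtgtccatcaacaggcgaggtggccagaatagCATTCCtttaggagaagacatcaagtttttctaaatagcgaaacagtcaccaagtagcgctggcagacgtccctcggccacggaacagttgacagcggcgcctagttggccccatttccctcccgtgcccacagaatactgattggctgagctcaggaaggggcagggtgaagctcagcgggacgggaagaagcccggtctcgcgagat

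Nf2 (chr11:4849545-4849794, minus strand, 250 bases before the start): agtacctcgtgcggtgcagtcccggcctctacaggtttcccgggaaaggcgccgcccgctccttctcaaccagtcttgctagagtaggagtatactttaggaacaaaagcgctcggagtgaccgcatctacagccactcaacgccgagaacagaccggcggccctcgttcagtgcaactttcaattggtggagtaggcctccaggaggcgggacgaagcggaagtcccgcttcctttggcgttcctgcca

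Amotl1 (chr9:14615001-14615200, minus strand, 200 bases before the start): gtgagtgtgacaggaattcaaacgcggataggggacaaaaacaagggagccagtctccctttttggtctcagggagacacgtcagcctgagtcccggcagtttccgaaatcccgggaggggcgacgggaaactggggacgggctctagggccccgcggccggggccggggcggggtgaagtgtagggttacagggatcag

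The match lay at bases 5 to 10 after the start in Lats2, at -106 to -101 in Sav1 and at -209 to -204 in Mob1a. Windows from 250 bases before to 30 after the start were available for 9 of the 10 genes, all but Stk3. In them the 6 letters occurred in 3 of 9 genes, beside 15.8% of the 27025 genes with such windows. A match is a run of letters, not a binding site, and most TEAD binding is known to lie in distal enhancers.

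The libraries held 15501005 to 21220365 counts. Levels are CPM, the counts relative to the library's size after TMM scaling, which corrects for the share of counts that a few genes take up. A gene is said to have risen or fallen only with an adjusted p under 0.05 in the edgeR test. The libraries of a cultured group differed more than fresh ones: the chi-square per degree of freedom between 2 libraries was 5.72 in FH and 4.19 in FH Yap-/-, but 71.8 to 247 in the cultured groups. Summed hepatocyte markers (10 genes) stood at 232812 to 236575 CPM in FH, 4804 to 35206 in BM 3W, 101496 to 121634 in BM 3W Yap-/- and 177013 to 213976 in LBDXL 3W, so the labelled cell type was weakest by its markers in BM 3W. Markers of stellate cells and fibroblasts (9 genes) summed to 75.3 to 90.3 CPM in FH, 9856 to 14061 in BM 3W, 347 to 390 in BM 3W Yap-/- and 223 to 524 in LBDXL 3W. Cholangiocyte markers (7 genes) summed to 44.2 to 47.9 CPM in FH, with Cftr at 0, to 4484 to 5188 in BM 3W, to 113 to 143 in BM 3W Yap-/- and to 33.7 to 60.6 in LBDXL 3W. Kupffer cell and macrophage markers (8 genes) summed to 884 to 1068 CPM in BM 3W, 108 to 113 in BM 3W Yap-/- and 1.90 to 2.78 in LBDXL 3W, and endothelial markers (7 genes) to 8.68 to 11.5 CPM in BM 3W and 1.11 to 1.36 in BM 3W Yap-/-, with Clec4g at 0 in the latter. In bulk libraries, fewer cells of a type and less RNA per cell cannot be told apart, and the part of these other cells in the results below was not tested.

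Some libraries stood apart within their group. Albumin took 4.35% of the counts of BM 3W 1 and 0.482% of those of BM 3W 2, and endothelial markers summed to 3.62 to 139 CPM over the LBDXL 3W libraries. In each of the 5 cultured groups 7 to 10 of the 10 genes stood higher in library 1, with median log2 differences of 0.30 in BM 1D, 0.29 in BM 3D, 0.15 in BM 3W and 0.32 in LBDXL 3W, beside -0.02 to 0.04 over all genes, and in FH and FH Yap-/- 3 and 2 did. All 10 genes stood higher in BM 3W Yap-/- 1 than in BM 3W Yap-/- 2, with a median log2 difference of 0.49 beside 0 over all genes. Across 13652 genes, which are not independent, that difference had a Spearman rho of 0.41 with the length of the longest transcript, and of -0.06 to 0.13 in the other groups. The log2 fold change of BM 3W Yap-/- against BM 3W had a rho of -0.25 with that length. Of the 10 genes, 4 had a longest transcript above the 90th percentile of tested genes: Lats1, Mob1b, Amot and Amotl1. The part of transcript length in the results on BM 3W Yap-/- was not tested.

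The scaling mattered as well. Total counts in place of TMM moved the median log2 fold change of all 14100 genes by 0.92 in BM 1D, 0.94 in BM 3D, 1.29 in BM 3W and 0.47 in LBDXL 3W against FH, and by -0.82 in LBDXL 3W and -0.64 in BM 3W Yap-/- against BM 3W. Changes are best read relative to that median, which lay between -0.10 and 0.17 under TMM in all 10 comparisons.

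Yap1 checked the genotype labels. The FH libraries had 87.6 and 97.6 CPM, the FH Yap-/- libraries 23.1 and 26.5, the BM 3W libraries 80.2 and 95.5, and the BM 3W Yap-/- libraries 6.66 and 7.75. All 4 libraries labelled Yap-/- were low, and none reached 0.

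The largest movements among the 10 genes were in the angiomotin genes Amot and Amotl1, while most kinases moved by less than 1 on the log2 scale. In BM 1D against FH 4 of the 10 genes rose and none fell, beside 43.8% of all tested genes called, 23.6% higher and 20.2% lower. In BM 3D against FH 5 rose and none fell (40.5% of all genes called, 22.5% higher and 17.9% lower). In BM 3W against FH 5 rose and 1 fell (59.1%, 33% higher and 26.1% lower). In LBDXL 3W against FH 2 rose and 1 fell (21.3%, 11.7% higher and 9.6% lower). These 4 comparisons share the FH libraries. The members' counts lay near the share of all genes that were called, and most of their calls were rises. From BM 1D to BM 3D 1 gene rose (5.26%, 3.67% higher and 1.6% lower), and from BM 3D to BM 3W 1 rose and 1 fell (24.4%, 13.5% higher and 10.9% lower). Several of these counts dropped when 1 library was left out, which leaves 1 library in its group. The share of all genes called in such fits is not given, here or below. Such counts are therefore not read as the part of a single library. Without FH 1 or FH 2 no gene was called in BM 1D, and 1 was without BM 1D 1. In BM 3D 2 were called without BM 3D 1, FH 1 or FH 2, and in LBDXL 3W 1 without FH 2 or LBDXL 3W 1. From BM 3D to BM 3W 1 was called without BM 3D 1 or any 1 library of BM 3W, FH or FH Yap-/-. The BM 3W count stayed at 5 or 6.

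Against BM 3W the movement was downward. In LBDXL 3W 4 of the 10 genes fell and none rose, where 44.8% of all genes were called, 21.1% higher and 23.7% lower. In BM 3W Yap-/- 5 fell and none rose, where 31.6% were called, 15% higher and 16.6% lower. The median log2 fold change was -0.45 in LBDXL 3W against BM 3W, beside -0.02 over all genes, and -0.62 in BM 3W Yap-/- against BM 3W, beside -0.03. Lats2, Sav1, Mob1a and Amotl1 fell in both, and Nf2 in BM 3W Yap-/- alone, a difference between the comparisons that was not tested. Both are set against the same 2 BM 3W libraries. By total counts 9 of the 10 genes fell in each, with 6650 and 5053 of the 14100 genes lower. In LBDXL 3W 1 gene was called without BM 3W 1 or without LBDXL 3W 2, and in BM 3W Yap-/- 2 were without BM 3W 1 and 1 without BM 3W Yap-/- 2. Without BM 3W 2 and LBDXL 3W 1 together, a choice made after seeing the data, 4 fell in each: Stk3, Sav1, Mob1a and Amotl1 in LBDXL 3W, and Lats2, Sav1, Mob1a and Amotl1 in BM 3W Yap-/-.

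**Figure D1:**
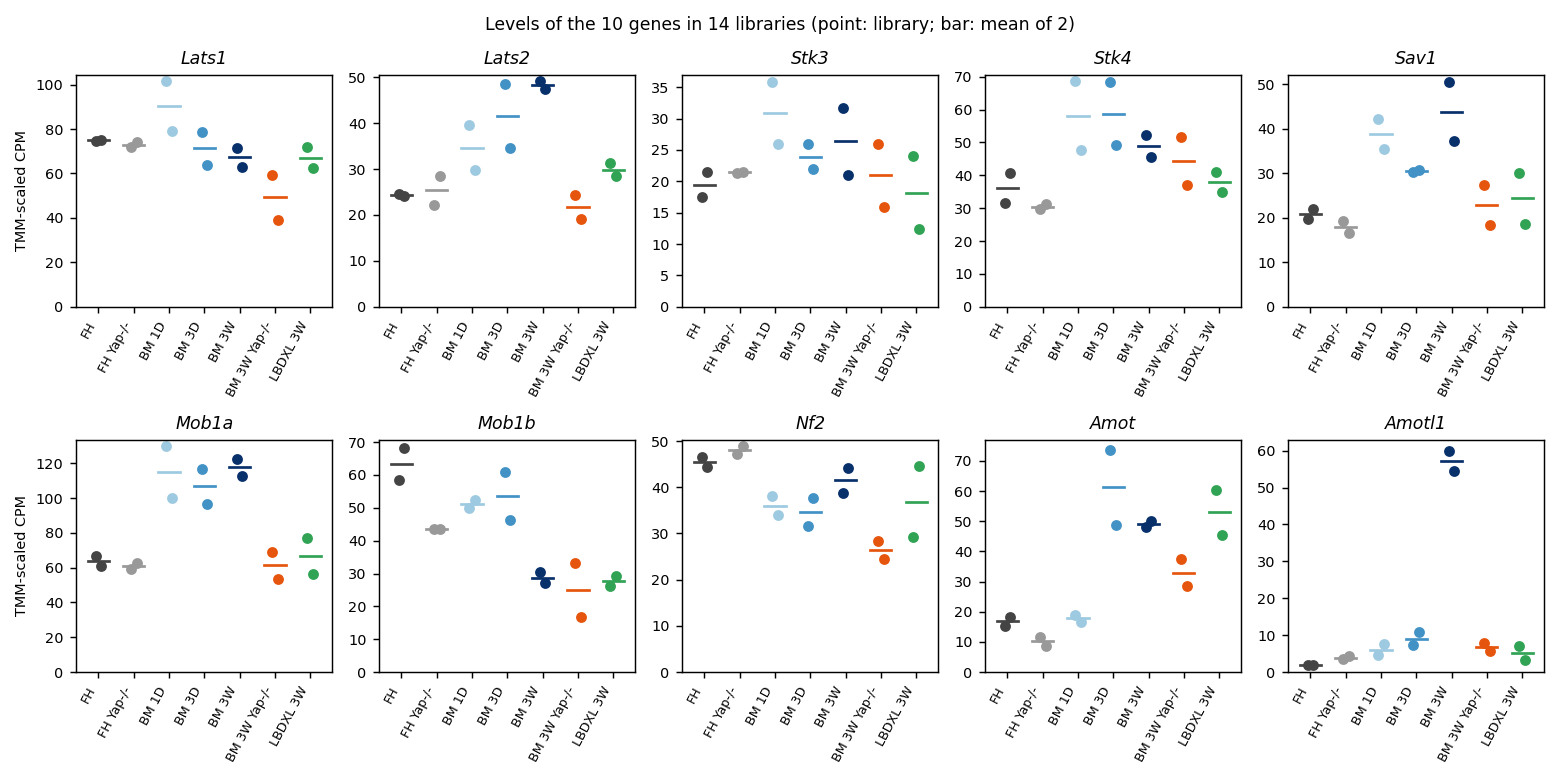
TMM-scaled CPM (vertical axis, from 0) of each of the 10 genes in the 7 groups; points are libraries and bars the mean of 2. Amotl1 stands at 54.6 and 60.02 CPM in BM 3W and at 10.7 or below in the other 12 libraries, and Amot is high in the cultured groups from 3 days on.

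By group means, BM 3W was highest for Lats2, Sav1, Mob1a and Amotl1, BM 1D for Lats1 and Stk3, BM 3D for Stk4 and Amot, and fresh cells for Mob1b and Nf2. BM 3W Yap-/- was lowest for Lats1, Lats2, Mob1b and Nf2, and FH Yap-/- for Stk4, Sav1, Mob1a and Amot. The highest group stood 1.70 times above the lowest for Stk3, 6.03 times for Amot and 29.5 times for Amotl1, and 1.83 to 2.52 times for the other 7 genes. Of the 6 neighbouring pairs in each gene's order, at most 3 were free of overlap between their libraries. Groups were ordered by their means, so neighbours are the closest groups, and each has 2 libraries. The share over all genes was not computed, so this is a description.

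Among the LATS kinases, which phosphorylate YAP directly, the genes differed. Lats1 (chromosome 10, 7681200 to 7716461) ran from 39.0 to 101 CPM with a median of 71.7, and did not pass in any of the 10 comparisons. It was lowest in BM 3W Yap-/- at 59.5 and 39.0 CPM and highest in BM 1D at 101 and 79.2. By total counts Lats1 was higher than FH in BM 3W, by 1.13 on the log2 scale (adjusted p = 0.00183 in edgeR), which is below the median of all genes under that scaling, 1.46.

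Lats2 (chromosome 14, 57689662 to 57746212) rose in BM 3D and BM 3W. It stood at 24.6 and 24.2 CPM in FH, 39.5 and 29.8 in BM 1D, 48.6 and 34.5 in BM 3D, and 49.1 and 47.5 in BM 3W. The BM 3D and BM 3W libraries lay above both FH libraries, with log2 fold changes of 0.77 ± 0.23 (standard error; adjusted p = 0.0227 in edgeR) and 0.98 ± 0.23 (adjusted p = 0.00424), while BM 1D (0.51 ± 0.23, adjusted p = 0.102) and LBDXL 3W (0.29 ± 0.23, adjusted p = 0.412) did not pass against FH. In LBDXL 3W it stood at 31.3 and 28.5 CPM and in BM 3W Yap-/- at 24.3 and 19.1, both below BM 3W. The log2 fold change against BM 3W was -0.69 ± 0.23 in LBDXL 3W (adjusted p = 0.0319) and -1.15 ± 0.23 in BM 3W Yap-/- (adjusted p = 0.00478). The rise in BM 3D was lost without BM 3D 1 or either FH library, the fall in LBDXL 3W without FH 1 or any 1 library of either group, with no filter on low counts or with both groups fitted alone, and the fall in BM 3W Yap-/- without BM 3W Yap-/- 2 (adjusted p = 0.0516). No neighbouring pair of groups in the order of Lats2 levels was free of overlap, so only groups further apart in that order separated. Of the exon bases of Lats2, 42.4% are shared with the predicted gene Gm49361 on the same strand, which is no row of the count table, so its level is uncertain.

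The MST kinases Stk3 (chromosome 15, 34875499 to 35155882) and Stk4 (chromosome 2, 164074113 to 164155524), which start the cascade, moved little. Stk3 ran from 12.3 to 35.8 CPM, passed in no comparison, and differed between the 2 libraries of LBDXL 3W by 24.0 against 12.3 CPM. Stk4 stood at 31.5 and 40.6 CPM in FH, 68.7 and 47.6 in BM 1D, and 68.3 and 49.2 in BM 3D. Its rises there were near the threshold, at 0.69 ± 0.26 (adjusted p = 0.0480 in edgeR) and 0.71 ± 0.26 (adjusted p = 0.0472), and each was lost under 12 of 23 alternative settings, among them the DESeq2 Wald test and the loss of either FH library. In BM 3W Stk4 stood at 52.2 and 45.5 CPM and in BM 3W Yap-/- at 51.7 and 37.2, ranges that overlap.

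The scaffold gene Sav1 and the co-activator gene Mob1a were both higher in BM culture than in FH. Sav1 (chromosome 12, 69965009 to 69988141) stood at 19.6 and 22.0 CPM in FH, 42.1 and 35.5 in BM 1D, 30.2 and 30.7 in BM 3D, and 50.4 and 37.2 in BM 3W. All 6 BM libraries without the Yap-/- label lay above FH, and the gene rose in BM 1D by 0.90 ± 0.28 (adjusted p = 0.0233 in edgeR) and in BM 3W by 1.07 ± 0.28 (adjusted p = 0.00691), but did not pass in BM 3D (0.55 ± 0.28, adjusted p = 0.136). It stood at 30.1 and 18.6 CPM in LBDXL 3W and 27.4 and 18.3 in BM 3W Yap-/-, below both BM 3W libraries, with log2 fold changes of -0.85 ± 0.28 (adjusted p = 0.0286) and -0.94 ± 0.28 (adjusted p = 0.0257). Exons of Sav1 overlap those of Atl1 on the opposite strand over 25.4% of their bases, and no source used here says whether counting used the strand. Atl1 had 16 to 145 counts in a library where Sav1 had 207 to 1471.

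Mob1a (chromosome 6, 83326034 to 83342812) had the highest FPKM of the 10 genes, a value per length of transcript, in 13 of 14 libraries. It stood at 66.5 and 61.3 CPM in FH, 130 and 100.1 in BM 1D, 117 and 96.8 in BM 3D, and 123 and 113 in BM 3W. All 6 BM libraries without the Yap-/- label were above FH, and Mob1a rose by 0.85 ± 0.22 in BM 1D (adjusted p = 0.0103 in edgeR), 0.74 ± 0.22 in BM 3D (adjusted p = 0.0209) and 0.88 ± 0.22 in BM 3W (adjusted p = 0.00577). The LBDXL 3W libraries, at 77.0 and 56.5 CPM, and the BM 3W Yap-/- libraries, at 69.3 and 53.4, spanned the FH values. Against BM 3W they were lower by -0.82 ± 0.22 (adjusted p = 0.0122) and -0.94 ± 0.22 (adjusted p = 0.00982) on the log2 scale. For both Sav1 and Mob1a the rise in BM 1D was lost without BM 1D 1 or either FH library. The falls in LBDXL 3W were lost without BM 3W 1 or LBDXL 3W 2 and with both groups fitted alone, and those in BM 3W Yap-/- without BM 3W 1 or BM 3W Yap-/- 2. The rise of Mob1a in BM 3D was lost without BM 3D 1 or either FH library, and that of Sav1 in BM 3W without BM 3W 1 or FH 1.

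Mob1b (chromosome 5, 88720871 to 88758455), the paralog of Mob1a, went the other way by TMM. It stood at 58.5 and 68.1 CPM in FH, 49.9 and 52.3 in BM 1D, 61.0 and 46.2 in BM 3D, and 30.5 and 27.0 in BM 3W. The BM 3W and LBDXL 3W libraries (26.2 and 29.3 CPM) were the low ones, together with BM 3W Yap-/- (33.3 and 16.9). Mob1b fell in BM 3W against FH by -1.14 ± 0.28 on the log2 scale (adjusted p = 0.00485 in edgeR) and in LBDXL 3W by -1.19 ± 0.28 (adjusted p = 0.0124), but by total counts the BM 3W value was 0.15 (adjusted p = 0.652), and by log2(FPKM + 1) 0.16. The fall in LBDXL 3W also did not pass by total counts or FPKM, or without FH 2 or LBDXL 3W 1. A fall from BM 3D to BM 3W (-0.90 ± 0.28, adjusted p = 0.0363) was lost under 14 of 23 alternative settings. Relative to the median of all genes under total counts, Mob1b stood at -1.31 in BM 3W against FH.

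Nf2 (chromosome 11, 4757639 to 4849544), which encodes the membrane scaffold merlin, differed little between fresh and cultured cells. It stood at 46.4 and 44.3 CPM in FH, 38.2 and 33.9 in BM 1D, 31.5 and 37.6 in BM 3D, 38.9 and 44.3 in BM 3W, and 29.2 and 44.6 in LBDXL 3W, and passed against FH in none of these groups by TMM. By total counts it was higher than FH in BM 1D, BM 3D and BM 3W, by 0.59, 0.54 and 1.17 on the log2 scale. Each value is below the median of all genes under that scaling, 1.08, 1.11 and 1.46. In BM 3W Yap-/- it stood at 28.3 and 24.4 CPM, the lowest group, and fell against BM 3W by -0.66 ± 0.22 (adjusted p = 0.0398 in edgeR), a call lost under 11 of 23 alternatives, including the loss of any 1 library of either group.

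**Figure D2:**
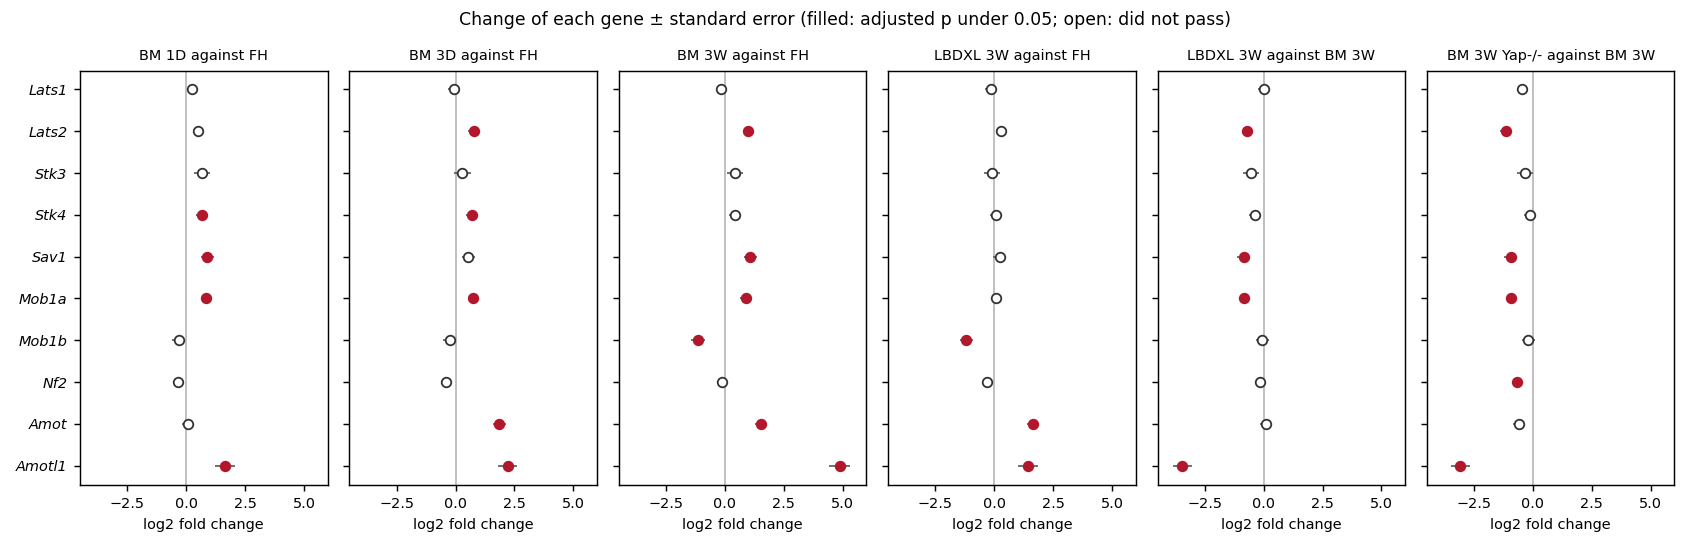
log2 fold change (horizontal axis) of each gene in 6 comparisons, with its standard error as a bar; filled points passed an adjusted p of 0.05 in edgeR and open points did not. Amotl1 in BM 3W against FH (4.88) lies farthest from 0, and in both comparisons with BM 3W every filled point lies below 0.

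Amot (chromosome X, 145446424 to 145505966) encodes angiomotin, which holds YAP outside the nucleus and is itself a LATS substrate. It stood at 15.4 and 18.3 CPM in FH, 19.0 and 16.7 in BM 1D, 73.8 and 48.7 in BM 3D, 47.9 and 50.04 in BM 3W, and 60.3 and 45.6 in LBDXL 3W. The FH and BM 1D libraries overlapped, and all libraries of BM 3D, BM 3W and LBDXL 3W lay well above them. Amot rose against FH by 1.86 ± 0.26 in BM 3D (adjusted p = 4.02e-04 in edgeR), 1.54 ± 0.26 in BM 3W (adjusted p = 5.29e-04) and 1.65 ± 0.26 in LBDXL 3W (adjusted p = 0.00171). These 3 calls held under all 23 alternatives. The rise came after the first day: from BM 1D to BM 3D the log2 fold change was 1.78 ± 0.26 (adjusted p = 0.00634), where 1186 of the 14100 genes had a larger one, and the call was lost only when these groups were fitted alone (adjusted p = 0.130). In LBDXL 3W against BM 3W Amot did not pass (0.11 ± 0.25, adjusted p = 0.748), in contrast to Amotl1, though the difference between the genes was not tested.

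Amotl1 (chromosome 9, 14541966 to 14662974), whose product is a tight-junction angiomotin, had the lowest FPKM of the 10 genes in 12 of 14 libraries. It stood at 1.91 and 1.98 CPM in FH, from 24 and 25 counts, at 4.69 and 7.50 CPM in BM 1D, 7.29 and 10.7 in BM 3D, and 60.02 and 54.6 in BM 3W. Every cultured library lay above both FH libraries, and BM 3W stood apart from the other 6 groups. Amotl1 rose against FH by 1.64 ± 0.41 in BM 1D (adjusted p = 0.00793 in edgeR), 2.21 ± 0.41 in BM 3D (adjusted p = 0.00176) and 4.88 ± 0.44 in BM 3W (adjusted p = 1.28e-05). The last is 29.4-fold, yet 1760 of the 14100 genes had a larger rise in that comparison. From BM 3D to BM 3W it rose by 2.67 ± 0.39 (adjusted p = 8.75e-04). In LBDXL 3W it stood at 7.08 and 3.38 CPM, a rise against FH (1.43 ± 0.41, adjusted p = 0.0303) that was lost without either FH library or LBDXL 3W 1, with these groups fitted alone (adjusted p = 0.126) and in limma on log2(FPKM + 1), where it was 0.31 (adjusted p = 0.134). The rise in BM 1D was lost without BM 1D 2 or either FH library.

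At 3 weeks Amotl1 was low in LBDXL cells and in BM cells labelled Yap-/-. Against BM 3W it fell by -3.45 ± 0.40 in LBDXL 3W (adjusted p = 1.30e-04 in edgeR) and by -3.08 ± 0.39 in BM 3W Yap-/- (adjusted p = 5.36e-04), where it stood at 7.97 and 5.58 CPM. These are falls of 10.9-fold and 8.45-fold, and both held under all 23 alternatives. Summed markers of stellate cells and fibroblasts, of cholangiocytes and of Kupffer cells and macrophages were also high in BM 3W and low in both other groups, in the ranges given above, and their part in the level of Amotl1 was not tested.

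The comparison of FH Yap-/- with FH asks what the genotype does without culture. None of the 10 genes passed, where 0.943% of all genes did in edgeR, 0.489% higher and 0.454% lower, and DESeq2 called none either. At an unadjusted p under 0.05 there were 2, Amot and Amotl1. Amot stood at 11.6 and 8.72 CPM against 15.4 and 18.3 (log2 fold change -0.73 ± 0.26, adjusted p = 0.375), and Amotl1 at 3.45 and 4.40 against 1.91 and 1.98 (1.01 ± 0.42, adjusted p = 0.479). The libraries did not overlap for either gene, and the directions were opposite. Fitting these 2 groups alone called 3 of the 10 genes, 1 higher and 2 lower. The share of all genes is not given here for that fit or for the unadjusted p, so neither count is set against it.

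The interaction term asks whether the genotype label goes with a different change in BM 3W than in fresh cells. Yap1 itself fell by -1.90 ± 0.19 in FH Yap-/- against FH and by -3.61 ± 0.21 in BM 3W Yap-/- against BM 3W. Its own term was -1.71 ± 0.27 (adjusted p = 0.00314 in edgeR), so the loss of Yap1 RNA was unequal. The part of this in the terms below was not tested. Of the 10 genes 2 passed, both more negative in culture, beside 16.9% of all genes, 8.04% with a positive and 8.84% with a negative term. It was -1.21 ± 0.33 for Lats2 (adjusted p = 0.0315 in edgeR) and -4.09 ± 0.57 for Amotl1 (adjusted p = 0.00201). The other 8 did not pass, among them Mob1a at -0.87 ± 0.31 (adjusted p = 0.0795) and Nf2 at -0.74 ± 0.31 (adjusted p = 0.118). The Lats2 call was lost without any 1 of 7 libraries of the 4 groups, all but BM 3W Yap-/- 1, while that of Amotl1 held under all 23 alternatives.

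**Figure D3:**
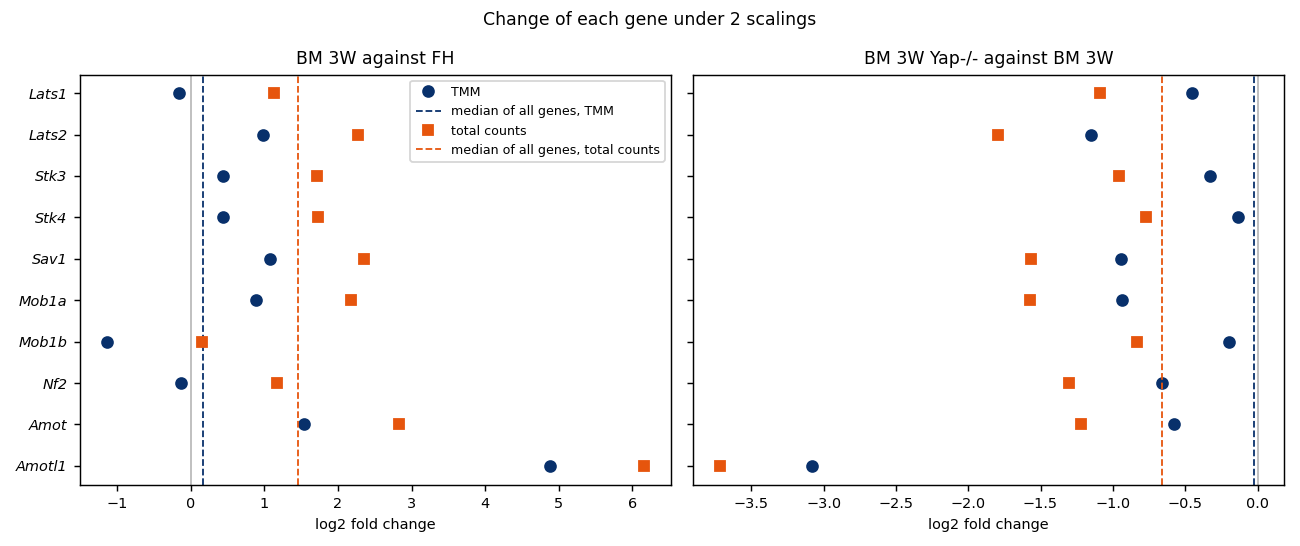
log2 fold change (horizontal axis) of each gene under TMM (circles) and total counts (squares), with dashed lines for the median of all genes under each. Under total counts 9 of 10 genes are called higher in BM 3W, beside 9282 of all 14100 genes. In BM 3W Yap-/- 9 are called lower, beside 5053 of all 14100. The distance of each gene to the median line stays nearly the same.

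Ratios of paralogs within a library were taken from FPKM as deposited. For the test 0.1 was added to each FPKM, and 4 fresh and 10 cultured libraries were compared by a 2-sided exact permutation test on log2 ratios, adjusted over the 4 pairs. Mob1a stood at 0.882 and 1.11 times the FPKM of Mob1b in FH, at 3.72 and 4.05 in BM 3W, and in the other cultured groups between 1.70 and 3.11. The ratio ran from 0.882 to 1.47 in fresh and from 1.70 to 4.05 in cultured libraries, with no overlap. The difference in mean log2 ratio was 1.03 (exact p = 0.00200, adjusted p = 0.00799). The coding sequences of Mob1a and Mob1b are 79.6% identical over aligned bases, yet none of the 50-base runs of the Mob1a transcript and 0.235% of those of Mob1b occur in another gene.

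The Lats2 to Lats1 ratio moved the same way. It was 0.462 and 0.503 in FH, 0.720 and 0.896 in BM 3D, and 1.01 and 1.04 in BM 3W. The LBDXL 3W libraries had 0.610 and 0.674, and those of BM 3W Yap-/- 0.626 and 0.732. BM 3W alone had as much Lats2 as Lats1 per length. Fresh and cultured libraries overlapped, and the difference in mean log2 ratio was 0.51 (exact p = 0.0150, adjusted p = 0.02997). It was lost without BM 3D 1, FH Yap-/- 1 or either FH library. Over 7 group means, which treat the libraries of a group as 1 sample, neither this ratio nor that of Mob1a to Mob1b passed (exact adjusted p = 0.190 for both). With so few means a single pair could not pass after adjustment, however large its difference, so no conclusion is drawn from them.

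Stk3 stood below Stk4 per length in all 14 libraries, at ratios of 0.409 to 0.723. The difference between cultured and fresh libraries was -0.25 (exact p = 0.0669, adjusted p = 0.0892). The Amotl1 to Amot ratio did not pass (-0.13, exact p = 0.841). Its direction turned with no FPKM added (0.35, exact p = 0.655), an alternative chosen after seeing the data. In FH the Amotl1 FPKM was 0.0822 and 0.0927, below the 0.1 added, so the tested ratio there leans on the added value. With nothing added the ratio was 0.0899 and 0.0908 in FH and 0.243 and 0.409 in FH Yap-/-. It was 0.899 and 1.06 in BM 3W, and 0.0641 and 0.0943 in LBDXL 3W. In BM 3W both angiomotin genes thus stood at like levels per length, and in LBDXL 3W the ratio was near that of FH. No single pair of groups could pass this test, with 2 libraries each.

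**Figure D4:**
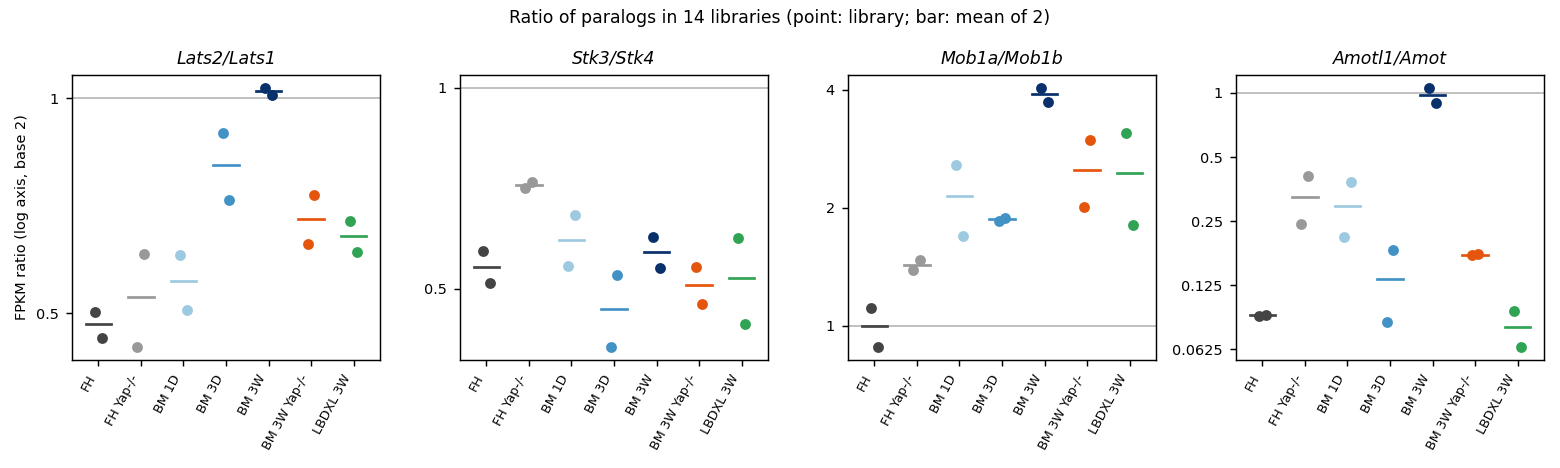
Ratio of FPKM of 4 pairs of paralogs (vertical axes, log scale, base 2) in each library, by group; points are libraries and bars the mean of 2. The Mob1a to Mob1b ratio is at least 1.70 in every cultured library and at most 1.47 in every fresh one, and the Amotl1 to Amot ratio is near 1 in BM 3W alone.

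The rest of the pathway was read from lists of other genes, to be set beside the shares of all genes called higher and lower: 33% and 26.1% in BM 3W against FH, 21.1% and 23.7% in LBDXL 3W against BM 3W, and 15% and 16.6% in BM 3W Yap-/- against BM 3W. Of 30 other genes that restrain YAP, 12 rose and 2 fell in BM 3W against FH (median log2 fold change 0.52, beside 0.17 over all genes), and 1 rose and 6 fell in BM 3W Yap-/- against BM 3W (median -0.59, beside -0.03). Ptpn14, a phosphatase that binds YAP, rose in BM 3W from 0.635 to 99.8 CPM on average (log2 fold change 7.28 ± 0.86). Frmd6, a FERM-domain protein related to merlin, rose from 4.32 to 51.3 CPM (3.57 ± 0.36), and fell against BM 3W to 17.3 CPM in BM 3W Yap-/- (-1.57 ± 0.33). Amotl2, the third angiomotin, fell against BM 3W in LBDXL 3W (-0.80 ± 0.20) and in BM 3W Yap-/- (-1.03 ± 0.20), as Amotl1 did. Map4k4, a kinase that can act on LATS in parallel to MST, rose in BM 3W from 2.66 to 226 CPM (6.40 ± 0.72). In LBDXL 3W against BM 3W 1 gene of this list rose and 11 fell.

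Genes that counter the Hippo kinases were read in the same way. The 19 such genes encode LIM proteins that hold LATS, subunits of the phosphatase complex that acts on MST, and the kinases Mark4, Sik2 and Sik3. In BM 3W against FH 8 rose and 1 fell, Sik3 (log2 fold change -1.41 ± 0.24). The median log2 fold change was 0.17, as over all genes. In BM 3W Yap-/- against BM 3W none rose and 1 fell (median -0.0031, beside -0.03). Ajuba, which binds and inhibits LATS kinases, rose in BM 1D to 87.2 CPM on average (log2 fold change against FH 4.12 ± 0.37), and stood at 57.7 CPM in BM 3W and 39.4 in LBDXL 3W. The gene that fell in BM 3W Yap-/- was Strn, a scaffold of the phosphatase complex (-0.69 ± 0.22). Whether the lists differ from each other was not tested.

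Downstream of the kinases, 4 TEAD genes rose in BM 3W against FH, among them Tead1, the DNA-binding partner of YAP, from 12.1 to 149 CPM (3.63 ± 0.42). Tead1 fell to 49.97 CPM in BM 3W Yap-/- (-1.58 ± 0.38) and to 54.3 CPM in LBDXL 3W (-1.46 ± 0.38). Of 20 tested YAP and TEAD targets, 18 rose and 1 fell in BM 3W against FH, 17 fell and none rose in LBDXL 3W against BM 3W, and 13 fell and none rose in BM 3W Yap-/- against BM 3W. Ptpn14 and Amotl2 stand both in this list and in that of other genes that restrain YAP. The lists were drawn up with earlier results of these data known, so their directions are a description.

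**Figure D5:**
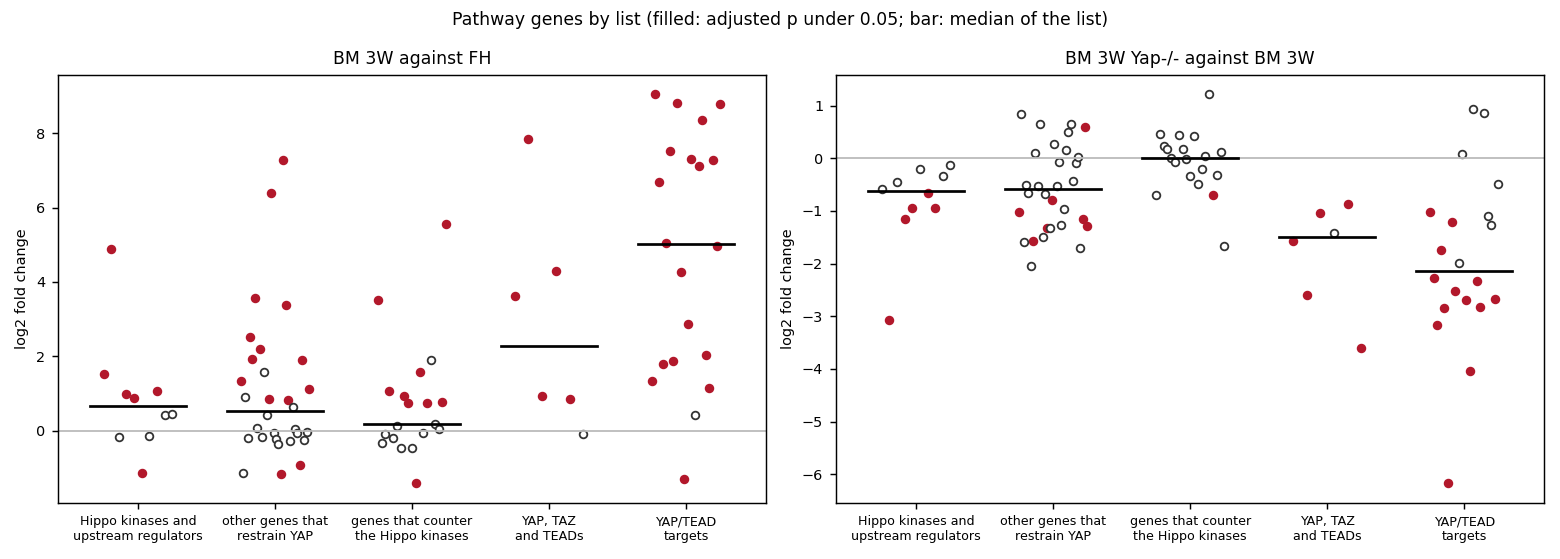
log2 fold change (vertical axis) of the genes of 5 lists in BM 3W against FH and in BM 3W Yap-/- against BM 3W; filled points passed an adjusted p of 0.05 in edgeR, open points did not, and bars are list medians. In BM 3W Yap-/- against BM 3W the 10 genes have a median of -0.62, and genes that counter the Hippo kinases lie around 0.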

How the data were processed

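RNA was extracted with RNeasy kits and libraries were made with a stranded TruSeq mRNA kit, per the labels. The authors deposited raw counts per gene and FPKM per gene for the 14 libraries. The submitters' processing notes name HISAT2, HTSeq, Cufflinks, DESeq and Trimmomatic and the GRCm38.p6 assembly. Settings, and whether counting used the strand, have no statement in the sources used here. Of the 21878 genes, 4326 had 0 counts in all libraries.

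Counts were tested with edgeR 4.0.16 (R 4.3.3): filterByExpr on group, TMM, 1 model with 7 group means over all 14 libraries, and the quasi-likelihood F-test with Benjamini-Hochberg adjustment over 14100 genes in each of 10 comparisons. Standard errors were derived from the log2 fold change and the F value. Paralog ratios used log2 of FPKM with 0.1 added to each gene. Alternatives were DESeq2 1.42.0 size factors and its Wald test, total counts, no filter, the compared groups alone, a replicate block, limma 3.58.1 on log2(FPKM + 1) and log2(FPKM + 0.1) at a mean FPKM of at least 0.5, and each library left out. Leaving out BM 3W 2 and LBDXL 3W 1 together, and ratios with no FPKM added, were chosen after seeing the data. The fits were tested on simulated counts. Overlaps and transcript lengths came from GENCODE vM21, coordinates and promoters from RefSeq for GRCm38.p6.

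The 10 genes, the gene lists and the tests were chosen with earlier results of these data known. Named from the other lists were genes among the 4 called members with the smallest p in a comparison, and for likeness the 3 genes with the highest Pearson r with a member, reaching 10 CPM on average in their highest group.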

Additional observations from a re-analysis of the deposited data

Results flagged for a closer look

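For 2 genes the change with the Yap-/- label differed between 3 weeks of BM culture and fresh cells, by the interaction term of the edgeR model. Amotl1 was lower in BM 3W Yap-/- than in BM 3W and numerically higher in FH Yap-/- than in FH, with an interaction of -4.09 on the log2 scale (adjusted p = 0.00201 in edgeR). Lats2 was lower in BM 3W Yap-/- than in BM 3W and at 22.2 and 28.6 CPM in FH Yap-/- against 24.6 and 24.2 in FH, with an interaction of -1.21 (adjusted p = 0.0315 in edgeR). Stellate cell and fibroblast markers summed to 9856 to 14061 CPM in BM 3W and 347 to 390 in BM 3W Yap-/-. Cholangiocyte markers summed to 4484 to 5188 and 113 to 143, and the part of these markers in both interaction values was not tested. Yap1 itself had an interaction of -1.71 (adjusted p = 0.00314 in edgeR), and the part of this unequal loss was not tested either.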

How the results depend on the processing

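With 2 libraries a group, 14 in all, and 24 or 25 counts for Amotl1 in FH, small changes could not be resolved, and p-values rest on a spread shared over all groups. Across 23 alternatives, 627 of 736 values of the called changes kept direction and side of the threshold, 106 no longer passed and 3 changed direction. Of 1564 values of the changes that did not pass, 86 passed in the same direction, 14 turned and passed, and 49 turned by more than a standard error without passing.

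The number of genes called moved with the scale in most comparisons. By total counts 9 of the 10 genes were called in BM 1D, 9 in BM 3D and 9 in BM 3W against FH. Against BM 3W 9 were called in LBDXL 3W and 9 in BM 3W Yap-/-, and 6 in the interaction. Of the 14100 genes, 7064 were then higher and 1351 lower in BM 1D, 7575 and 1038 in BM 3D, and 9282 and 1364 in BM 3W. Against BM 3W 1135 were higher and 6650 lower in LBDXL 3W, and 798 and 5053 in BM 3W Yap-/-. In the interaction they were 463 and 2780. With log2(FPKM + 1) the counts were 7 in BM 1D and 9 in BM 3D against FH, 10 in LBDXL 3W and 10 in BM 3W Yap-/- against BM 3W, and 7 in the interaction. With log2(FPKM + 0.1) they were 8, 8, 10, 10 and 7. The shares of all genes called under the FPKM settings are not given here. FPKM lacks the TMM correction, so these counts are not read as results on the 10 genes. Over all genes, the share of calls that were higher went from 53.9 to 83.9% in BM 1D, 55.7 to 87.9% in BM 3D, 55.9 to 87.2% in BM 3W and 55.0 to 81.4% in LBDXL 3W against FH with total counts. It went from 55.3 to 78.3% in BM 3W against BM 3D (66.2% with DESeq2 size factors), 47.1 to 14.6% in LBDXL 3W and 47.5 to 13.6% in BM 3W Yap-/- against BM 3W, and 47.6 to 14.3% in the interaction.

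Fitted alone, the compared groups gave 0 calls in BM 3D against BM 1D, 1 in BM 3W against BM 3D, 1 in LBDXL 3W against BM 3W, 3 in FH Yap-/- against FH and 4 in the interaction. The shares of all genes called with groups fitted alone are not given here, so those counts are not set against them. BM 3W against BM 3D had 1 call with DESeq2 size factors and 1 with the DESeq2 Wald test. Without BM 3W 2 and LBDXL 3W 1 together there was 1 call in LBDXL 3W against FH, 1 in BM 3W against BM 3D and 1 in the interaction.

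With 1 library left out, the counts ran from 0 to 4 in BM 1D, 2 to 5 in BM 3D, 5 to 6 in BM 3W and 1 to 3 in LBDXL 3W against FH. They ran from 1 to 1 in BM 3D against BM 1D, 1 to 2 in BM 3W against BM 3D, 1 to 4 in LBDXL 3W and 1 to 6 in BM 3W Yap-/- against BM 3W, 0 to 0 in FH Yap-/- against FH, and 1 to 2 in the interaction. BM 1D against FH had 0 calls without FH 1 or FH 2 and 1 without BM 1D 1. LBDXL 3W against BM 3W had 1 without BM 3W 1 or LBDXL 3W 2, and BM 3W Yap-/- against BM 3W had 2 without BM 3W 1 and 1 without BM 3W Yap-/- 2. The lone library of a group was then assumed to vary like the others. The shares of all genes called with 1 library left out are not given here, so these counts are not set against them.

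Directions that turned, on the log2 scale, were these. By total counts Lats1 was at 0.89 in BM 3D and 1.13 in BM 3W against FH. Nf2 was at 0.59 in BM 1D, 0.54 in BM 3D and 1.17 in BM 3W, and Mob1b at 0.15 in BM 3W. All of these lay below the median of all genes under that scaling, 1.08 in BM 1D, 1.11 in BM 3D and 1.46 in BM 3W. With log2(FPKM + 1) Lats1 was at 0.83 in BM 3D and 1.08 in BM 3W, Mob1b at 0.67 in BM 3D and 0.16 in BM 3W, Nf2 at 1.03 in BM 3W, and Amot at -0.60 in LBDXL 3W against BM 3W. With log2(FPKM + 0.1) Lats1 was at 0.93 in BM 3D and 1.21 in BM 3W, Mob1b at 0.17 and Nf2 at 1.18 in BM 3W, and Amot at -0.70. These scales lack the TMM correction.

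For the paralog ratios, the Lats2 to Lats1 difference no longer passed over 7 group means (0.51, exact adjusted p = 0.190) or wild-type libraries only (0.58, exact adjusted p = 0.222), nor did Mob1a to Mob1b (1.03, exact adjusted p = 0.190, and 1.30, exact adjusted p = 0.0889). Fewer samples entered both settings. In neither could a single pair pass after adjustment over the 4 pairs, however large its difference, so no conclusion is drawn from them. With a pseudocount of 1 Stk3 to Stk4 passed (-0.29, exact adjusted p = 0.0200). Amotl1 to Amot turned to 0.54 with wild-type libraries only and to 0.35 with no pseudocount, an alternative chosen after seeing the data. With 1 library left out the differences ran from 0.45 to 0.60 for Lats2 to Lats1, -0.34 to -0.18 for Stk3 to Stk4, 0.89 to 1.13 for Mob1a to Mob1b and -0.37 to 0.16 for Amotl1 to Amot. A filter on low FPKM left all 4 pairs in.

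A replicate block on the library numbers gave, against FH, 4 calls in BM 1D, 5 in BM 3D, 6 in BM 3W and 3 in LBDXL 3W, 1 in BM 3D against BM 1D, 2 in BM 3W against BM 3D, 4 in LBDXL 3W and 5 in BM 3W Yap-/- against BM 3W, 0 in FH Yap-/- against FH and 3 in the interaction, where Mob1a passed (-0.89, adjusted p = 0.0344 in edgeR); it changed no other call of the 10 genes. Same-numbered libraries of 21 pairs of groups deviated together by r from -0.02 to 0.46, with 5 pairs over 0.1, all of them cultured groups, the highest BM 1D with BM 3D (0.46) and BM 3W with BM 3W Yap-/- (0.31). The labels give the numbers no meaning and not every pair was over 0.1, so the numbers were not taken to pair the libraries.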

Other observations

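Genes with the most similar course over the 14 libraries, by Pearson's r of log2 CPM among 10153 candidates, differed from gene to gene. The libraries of a group, and the scaling, are shared by all of these genes, so the values are a description. For Amotl1 they were Plekho2 (r = 0.98), Adamts9, a secreted matrix protease (0.97), and Medag (0.97). For Amot they were Osbpl3 (0.94), the angiomotin gene Amotl2 (0.91) and Bex1 (0.91). Wwc2, which encodes a scaffold that binds LATS kinases, was among the 3 nearest genes of both Lats2 (0.93) and Mob1a (0.98). Mob1a was also near the transcription factor gene Ets1 (0.98) and Ktn1 (0.97), and Lats2 near Tmx3 (0.95) and Fam178a (0.92). For Sav1 the nearest were Arhgap10 (0.96) and the actin regulators Wasf2 (0.96) and Abi1 (0.95), and for Stk4 they were Tfdp1 (0.97), the kinase gene Pak2 (0.95) and Smarcc1 (0.93). Mob1b and Nf2 had looser matches, with r of 0.89 for Polr3a and 0.90 for Ptar1 as the highest.

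In BM 3W Yap-/- against BM 3W, of the 30 other genes that restrain YAP the ones that fell with the smallest p were Amotl2, Map4k3, Frmd6 and Wwc2, with log2 fold changes of -1.03, -1.31, -1.57 and -1.29.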
